A study of Arabidopsis thaliana with 18 samples.

Results

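The earliest response to an estradiol spray that induces PAD4 was read from 3 estradiol-sprayed leaf libraries. They were set against 3 mock-sprayed ones, and both groups were taken 6 h after spraying. These are 6 of the 18 libraries of a time course on Arabidopsis thaliana leaves, chosen by the treatment and time in their labels. Both groups carried the same transgenes and mutations, in the line called ED-P4E1: PAD4 under a promoter switched on by estradiol, EDS1 under the CaMV 35S promoter, and the eds1-2 and pad4-1 mutations, in the Col-0 background. Plants of 4 weeks, grown in soil at 22 °C with 10 h of light per day, were sprayed with 10 µM estradiol in the estradiol group or with 0.2% DMSO in the mock group, both with 0.01% silwet-77, a surfactant. The sources used here do not say whether the estradiol spray also held DMSO, and no estradiol-sprayed plant without the PAD4 transgene was analysed here, so effects of the chemical and of PAD4 cannot be told apart. Of the 32678 genes in the table, 19227 had enough reads to be tested.

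PAD4 and EDS1 resemble lipases, bind each other and act as a node of plant immunity. They are needed for basal resistance and for signalling downstream of intracellular receptors that carry a Toll/interleukin-1 receptor (TIR) domain, where they work with helper receptors of the ADR1 family. The branch they drive raises salicylic acid (SA), a defence hormone whose main route in leaves runs through the enzyme ICS1, and it acts against jasmonate (JA), a hormone of wounding and of defence against chewing insects and necrotrophic fungi.

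The 6 libraries held 22590027 to 37547100 reads on genes, so that 3 reads stood for 0.0855 to 0.142 CPM. CPM, counts scaled to a common library size, are given after TMM scaling throughout, which corrects for the make-up of each library. Leaf markers were abundant in every library, RBCS1A at 17581.4 to 18710.9 CPM under estradiol and at 17761.7 to 19480.3 CPM under mock. The root genes PIN2, RHD6, EXP7 and CASP1 and the floral genes AP1 and LFY had no read in any of the 6. Of 10 root markers, however, 4 had enough reads to be tested, among them NRT1.1 and WOX5, and of 9 flower and pollen markers, 1 (AG). The estradiol libraries differed among themselves more than the mock libraries did: the chi-square per degree of freedom between pairs was 8.125 to 32.94 among estradiol libraries and 2.924 to 4.036 among mock libraries. Estradiol replicate 3 stood apart. It held 88 genes at least 2-fold above each of the other 5 libraries, out of 16856 genes with a mean of at least 1 CPM, where estradiol replicate 1 held 0, estradiol replicate 2 held 5 and each mock library held 0. Because of this, the medians of the gene lists are given with and without it, as are those of several single genes. The labels do not say whether replicates came from separate plants or pots, so the p-values measure the spread between these libraries, which may be technical. In whole leaves, fewer cells of a type and less RNA per cell cannot be told apart.

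PAD4 itself checks the labels. It had 129.8, 259.4 and 256.0 CPM in the estradiol libraries, against 33.18, 32.77 and 28.66 CPM in the mock libraries. Every estradiol library lay far above every mock library, and replicate 1 was the lowest of the 3. PAD4 rose 6.84-fold (95% interval 4.63 to 10.1), a log2 fold change of 2.77 ± 0.27 (SE), with an adjusted p of 0.000119 in edgeR's quasi-likelihood test. The reads do not separate the transgene from the pad4-1 locus, whose transcript is counted under the same name, and the same holds for EDS1. The estradiol effect on PAD4 was 4.26 at 12 h and 3.82 at 24 h on the log2 scale, and its difference from 6 h did not pass the test (adjusted p 0.068 for 12 h and 0.11 for 24 h). EDS1, which the 35S promoter drives in both groups, had 2797.7, 2708.3 and 3724.4 CPM under estradiol, against 3522.9, 3613.9 and 2850.4 CPM under mock. The groups overlapped, and the log2 fold change was -0.11 ± 0.21 (adjusted p 0.942), with a 95% interval of the fold change between 0.685 and 1.25.

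Beside PAD4, only 6 genes passed the test at 6 h (edgeR, Benjamini-Hochberg adjusted p below 0.05 over the 19227 genes). The 7 calls make up 0.0364% of the genes tested: 5 higher in estradiol leaves (0.0260%) and 2 lower (0.0104%). The 4 risers other than PAD4 were NAC036, a transcription factor of the NAC family, and 3 genes without a common symbol: AT2G20142, annotated as a TIR-domain family protein, AT5G39670, annotated as a calcium-binding EF-hand protein, and AT5G52760, annotated in the copper transport protein family. The 2 that fell were RL4, a small RADIALIS-like protein with a single MYB-type domain, and MES18, a member of the methylesterase family, some of whose members free hormones from their methyl esters. The 3 unnamed risers were scarce transcripts, with 5 to 13 reads per mock library except for AT2G20142, which had 3 to 11.

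To show where these genes sit and what precedes them, the 250 bases upstream of the annotated gene start are printed for the 3 risers without a common symbol. They were read 5′ to 3′ on the gene's strand from the RefSeq genome of build TAIR10.1 (the submitters name TAIR10). The windows are chr5:21386477-21386726 for AT5G52760, chr2:8695124-8695373 for AT2G20142 and chr5:15882929-15883178 for AT5G39670, all on the plus strand. Capitals mark TTGAC or its reverse complement GTCAA, the core of the W-box that WRKY transcription factors bind.
AT5G52760: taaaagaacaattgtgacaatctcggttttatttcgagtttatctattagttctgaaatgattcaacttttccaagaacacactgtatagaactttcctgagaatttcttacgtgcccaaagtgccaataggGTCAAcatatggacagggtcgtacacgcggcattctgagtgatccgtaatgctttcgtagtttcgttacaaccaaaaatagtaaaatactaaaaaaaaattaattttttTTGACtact
AT2G20142: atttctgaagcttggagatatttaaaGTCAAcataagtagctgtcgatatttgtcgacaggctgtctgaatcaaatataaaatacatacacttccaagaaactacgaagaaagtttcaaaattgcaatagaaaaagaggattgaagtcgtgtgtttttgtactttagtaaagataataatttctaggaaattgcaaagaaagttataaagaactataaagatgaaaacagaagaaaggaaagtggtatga
AT5G39670: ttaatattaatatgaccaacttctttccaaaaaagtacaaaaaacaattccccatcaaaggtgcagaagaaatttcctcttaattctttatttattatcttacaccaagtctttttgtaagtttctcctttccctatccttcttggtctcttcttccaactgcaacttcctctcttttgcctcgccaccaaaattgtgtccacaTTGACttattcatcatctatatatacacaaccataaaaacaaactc
TTGAC on either strand stood in all 3 windows, at 118 and 9 bases before the start of AT5G52760, 224 before AT2G20142 and 46 before AT5G39670. The same 5 letters occur in 44.9% of the 27443 windows of this length upstream of nuclear protein-coding genes and in 44.7% of those of genes tested, so a match is common. RL4 and MES18, the falling genes, each had 1, and the PAD4 locus had 0. These windows do not cover every called gene, so nothing is read from the count. Neither TGACG, the core bound by TGA factors, which overlaps TTGAC where the letters read TTGACG, nor CACGTG, the G-box, was found on either strand of any of these 6 windows. Of all windows, 18.6% held TGACG, 6.5% held CACGTG and 7.2% held TTGACG. A match is a description of letters and does not show binding.

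AT2G20142 was among the genes that rose most. It had 1.091, 1.362 and 2.600 CPM in the estradiol libraries (23, 38 and 69 reads), against 0.133, 0.126 and 0.314 CPM in the mock libraries (4, 3 and 11 reads). All estradiol libraries exceeded all mock libraries, and replicate 3 was the highest. The transcript was 8.34-fold higher (95% interval 4.07 to 17.1), a log2 fold change of 3.06 ± 0.49 with an adjusted p of 0.0285. TIR domains are the signalling parts of the receptors that work through EDS1 and PAD4.

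AT5G39670 rose about as much. Its values were 1.233, 1.900 and 2.864 CPM under estradiol and 0.166, 0.419 and 0.143 CPM under mock. The groups did not overlap, and the lowest estradiol library stood well above the highest mock library. The fold change was 8.85 (95% interval 4.12 to 19.0), or 3.14 ± 0.52 on the log2 scale, with an adjusted p of 0.0331. EF-hands are loops that bind calcium, an early messenger of immune signalling. An annotated non-coding gene, AT5G05995, runs over 873 bases of it on the other strand, and the sources do not say whether counting used strand, so reads of the pair cannot be told apart. AT5G39680, also on the other strand, shares 67 bases with it.

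AT5G52760 and NAC036 moved less but more evenly. AT5G52760 had 1.328, 1.434 and 1.658 CPM under estradiol, against 0.332, 0.545 and 0.342 CPM under mock, a 3.73-fold difference (log2 1.90 ± 0.24, adjusted p 0.00236). NAC036 had 5.55, 5.951 and 5.916 CPM under estradiol, against 3.284, 2.137 and 3.137 CPM under mock, a 2.01-fold difference (log2 1.00 ± 0.16, adjusted p 0.0285). For both genes the 3 estradiol libraries lay close together and clear of the mock libraries.

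The 2 falling genes had smaller standard errors than the 5 risers. RL4 had 36.81, 38.07 and 34.37 CPM in estradiol leaves, against 52.92, 52.96 and 51.11 CPM in mock leaves. No estradiol library came near the mock libraries, and the level in estradiol leaves was 0.696 of that in mock leaves (log2 -0.52 ± 0.056, adjusted p 0.000252). MES18 had 19.45, 21.12 and 22.76 CPM in estradiol leaves, against 36.26, 36.37 and 33.71 CPM in mock leaves, a ratio of 0.597 (log2 -0.74 ± 0.11, adjusted p 0.00846). Both were thus lower by under 2-fold with little spread. MES18 shares 93 bases with AT5G58300 and 355 with the non-coding AT5G08825, both on the other strand, with the same limit on telling their reads apart.

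**Figure D1:**
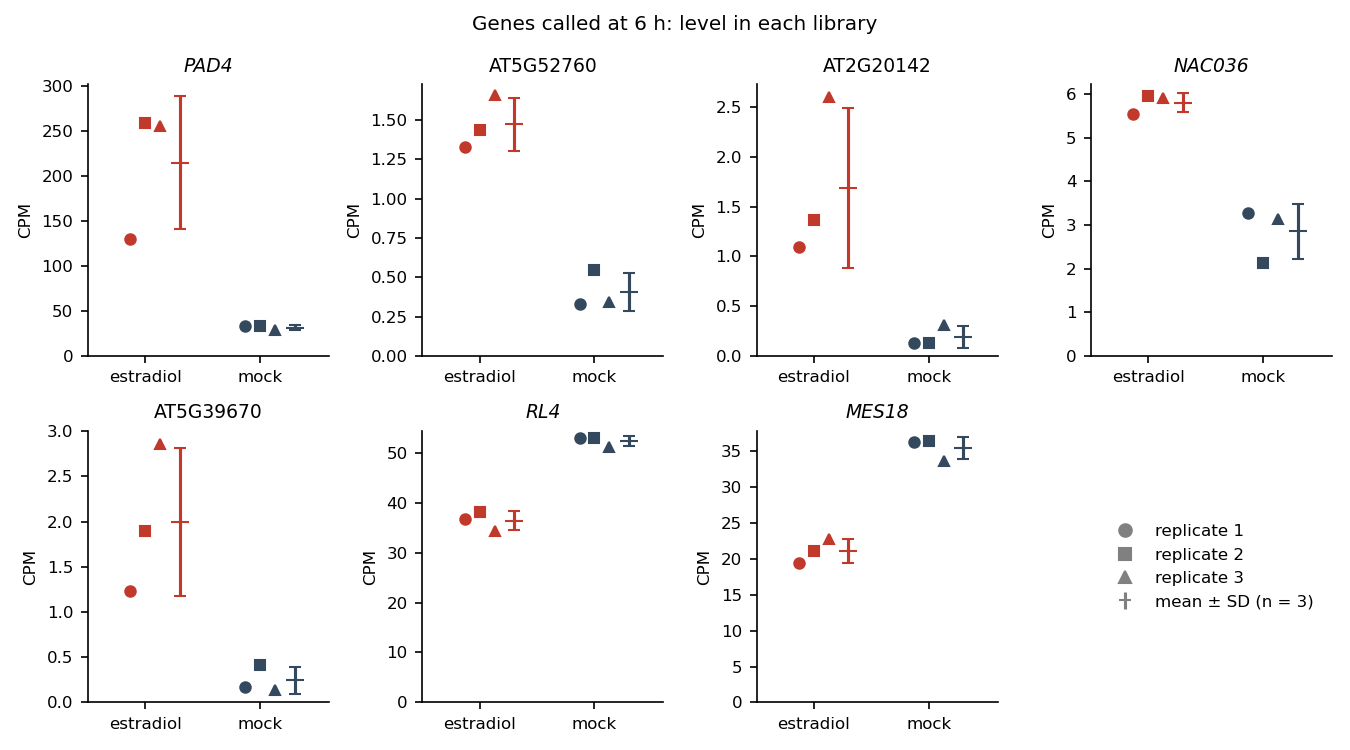
Level in CPM (vertical axes, from 0) of the 7 genes called at 6 h in each library, estradiol left and mock right in each panel. Symbols mark replicates 1 to 3, with the mean ± SD (n = 3) beside them. No gene's groups overlap, and estradiol replicate 1 is the lowest estradiol library for PAD4 and for the other 4 risers.

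In each of the 4 risers other than PAD4, estradiol replicate 1, which had the least PAD4, was the lowest of the 3 estradiol libraries. Over all genes tested it was the lowest for 32.51%. With 3 libraries this is a description and not a test of dose.

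The calls differed in how much they rested on single libraries. PAD4, RL4 and AT5G52760 passed the test whichever of the 6 libraries was left out (adjusted p at most 0.00312, 0.00357 and 0.0398). MES18 missed it without estradiol replicate 1 (0.0662), mock replicate 1 (0.0704) or mock replicate 2 (0.0718). AT2G20142 missed it without estradiol replicate 3 (0.135), mock replicate 1 (0.292), mock replicate 2 (0.158) or mock replicate 3 (0.0881). AT5G39670 missed it without estradiol replicate 2 (0.0876) or 3 (0.152) and without mock replicate 1 (0.365), 2 (0.0718) or 3 (0.325). NAC036 missed it without any 1 of the 6 (0.0702 to 0.151). The tool mattered as well. PAD4, RL4 and MES18 also passed in limma-voom and in a fit to the 6 h libraries alone. The other 4 passed in neither: the adjusted p was 0.18 in limma-voom and 0.161 in the 6 h fit for AT5G52760, 0.423 and 0.191 for AT2G20142, 0.423 and 0.161 for AT5G39670, and 0.222 and 0.234 for NAC036. The direction held in all of these fits. With 1 library left out, log2 fold change ran between 2.60 and 3.68 for AT2G20142, 2.80 and 3.69 for AT5G39670, 0.86 and 1.11 for NAC036 and -0.80 and -0.69 for MES18.

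**Figure D2:**
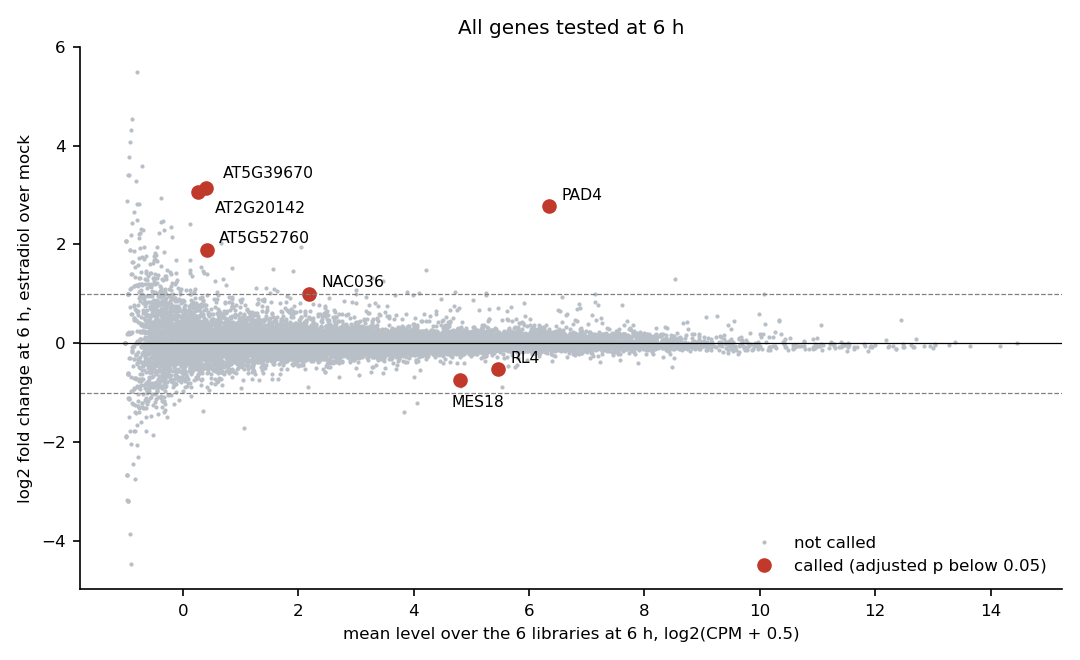
Log2 fold change at 6 h, estradiol over mock (vertical axis), against the mean level over the 6 libraries as log2(CPM + 0.5) (horizontal axis) for the 19227 genes tested. Red points are the 7 called genes, grey points the rest, and dashed lines mark 2-fold. Most large differences sit at low levels, and PAD4 stands at 2.77.

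The rest of the transcriptome differed little. The median gene had a log2 fold change of 0.0072, and 52.56% of the genes had a positive one. For 88.85% of the genes tested the whole 95% interval lay within 2-fold of no change, in either direction. The share was 97.88% among those with a mean log2 CPM of at least 1 over the 18 libraries. Estimated changes of 2-fold or more numbered 178 higher and 86 lower, of which 146 and 83 were genes below that mean level. Without adjustment for the number of genes, 1456 genes (7.57%) had p below 0.05, 914 of them higher (4.75%) and 542 lower (2.82%). The libraries of the groups did not overlap for 1322 genes in the higher direction (6.88%) and for 1345 in the lower direction (7.00%).

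DESeq2, run as an alternative, called 40 genes (0.208%). It held the 7 of edgeR and 33 more, 19 higher and 14 lower, whose groups did not overlap in any case. NUDT7, a nudix hydrolase that restrains EDS1-dependent defence, had 21.82, 23.77 and 31.77 CPM under estradiol, against 17.98, 15.38 and 15.97 CPM under mock. All estradiol libraries lay above all mock libraries (log2 0.65 ± 0.14), and its adjusted p was 0.0065 in DESeq2 and 0.206 in edgeR. XBAT34, a RING-type ubiquitin ligase with ankyrin repeats, had 9.962, 12.15 and 13.60 CPM under estradiol and 6.137, 5.447 and 7.101 CPM under mock (log2 0.93 ± 0.19, adjusted p 0.000195 in DESeq2 and 0.162 in edgeR). PR5, a thaumatin-like secreted protein and a classic SA marker, had 144.1, 120.7 and 104.1 CPM under estradiol, against 72.22, 78.18 and 95.74 CPM under mock (log2 0.58 ± 0.13, adjusted p 0.0164 in DESeq2 and 0.215 in edgeR). The receptor-like kinases CRK6 and CRK14 showed log2 differences of 0.71 ± 0.19 and 0.63 ± 0.16 (adjusted p 0.0401 and 0.0498 in DESeq2, 0.37 and 0.36 in edgeR). BBX31, a B-box zinc finger protein, and AT4G30460, annotated as a glycine-rich protein, showed 0.88 ± 0.20 and 0.81 ± 0.20 (adjusted p 0.0482 and 0.0383 in DESeq2, 0.263 and 0.324 in edgeR).

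The largest differences among these extra calls were in scarce transcripts. CNGC19, a cyclic nucleotide-gated calcium channel, had 14, 9 and 18 reads in estradiol libraries, against 4, 1 and 1 in mock libraries (log2 2.94 ± 0.69). AT5G25260, annotated as a membrane-associated band 7 protein, had 5, 14 and 26 reads under estradiol, against 3, 5 and 1 under mock (log2 2.48 ± 0.63). AT5G24200 and AT1G43910, annotated as an alpha/beta-hydrolase and a nucleoside triphosphate hydrolase, differed by 2.41 ± 0.50 and 2.03 ± 0.41, and AT3G57460, annotated as a metalloendopeptidase, by 1.55 ± 0.31. The first 2 of these 5 stood at a few reads per mock library, so their size is poorly fixed. Of the 19 higher genes, 9 were also called higher at 12 h and 11 at 24 h by edgeR, in other libraries, beside 4.64% and 8.43% of all genes tested.

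The other 7 higher genes had log2 differences of 0.26 to 0.57. RGP1 and RGP2, mutases that supply arabinose for cell walls, differed by 0.48 ± 0.11 and 0.26 ± 0.056 on the log2 scale, and EDA9, a phosphoglycerate dehydrogenase of serine synthesis, by 0.39 ± 0.09. NRPB10, a small RNA polymerase subunit, had 30.50, 30.97 and 30.26 CPM under estradiol, against 23.65, 25.39 and 25.75 CPM under mock (log2 0.29 ± 0.059). Its libraries were tight in both groups. dNK, a deoxynucleoside kinase, POLA3, a DNA primase subunit, and the uncharacterized AT5G49440 had log2 differences of 0.33 ± 0.067, 0.57 ± 0.13 and 0.27 ± 0.056. None of these 7 passed edgeR's test over the 18 libraries (adjusted p 0.162 to 0.267), and of them only POLA3 was called higher at 24 h (0.53).

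Among the genes lower by DESeq2 alone, none was lower by more than 2-fold except AT1G09500, annotated as an NAD(P)-binding protein, which had 0.474, 0.430 and 0.490 CPM in estradiol leaves and 1.227, 1.173 and 1.198 CPM in mock leaves (log2 -1.36 ± 0.27). RL3, a relative of RL4, had 2.182, 4.302 and 2.412 CPM under estradiol, against 5.308, 6.746 and 4.763 CPM under mock (log2 -0.88 ± 0.21, adjusted p 0.0164 in DESeq2 and 0.305 in edgeR). The groups of both genes were separate. IPT3, an enzyme of cytokinin synthesis, LBD21, a LOB-domain factor, and LHCB4.3, an antenna protein of photosystem II, differed by -0.36 ± 0.077, -0.36 ± 0.075 and -0.43 ± 0.098. PUP7, a purine permease, and AT2G41090, an EF-hand protein, differed by -0.58 ± 0.14 and -0.48 ± 0.12, yet were called higher at 24 h (0.74 and 0.69), as was LBD21 (0.24). Of the remaining lower ones, AT5G22090, AT4G01600, AT3G47070, AT2G41250, AT4G21445, AT4G32340 and GSTU27 lay between -0.50 and -0.22. Of the 14 lower genes, 4 were also called lower at 12 h and 0 at 24 h, beside 5.07% and 6.54% of all genes tested, and a count of 0 among 14 is near the second share.

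The called genes were followed in the libraries of the later times, which are other libraries with their own mock controls. All 5 risers were called higher at 12 h and at 24 h too, beside 4.64% and 8.43% of all genes tested. Relative to 6 h, the effect at 24 h was larger for NAC036 (a difference of 2.24, log2 3.24 against 1.00, adjusted p 5.36e-06), AT5G52760 (3.60, log2 5.50 against 1.90, adjusted p 6.33e-06) and AT5G39670 (3.17, log2 6.31 against 3.14, adjusted p 0.0457). For AT2G20142 the difference of 1.71 did not pass (adjusted p 0.251). The effects at 12 h were 2.16 for AT2G20142, 3.12 for AT5G39670, 2.00 for AT5G52760 and 1.27 for NAC036, and none of the 4 differed from 6 h beyond the test (adjusted p 0.577 to 0.993). In level, AT5G52760 reached 12.39 to 14.47 CPM under estradiol at 12 h, against 2.985 to 3.460 CPM under mock, so mock leaves at 12 h held more of it than estradiol leaves at 6 h.

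RL4 fell at the later times too. Its log2 fold change was -0.27 at 12 h and -0.22 at 24 h, and the effect at 24 h was weaker than at 6 h by 0.30 (adjusted p 0.0223). MES18 had -0.27 at 12 h (adjusted p 0.0962) and -0.35 at 24 h (adjusted p 0.0264), neither different from 6 h by the test (adjusted p 0.138 and 0.127).

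**Figure D3:**
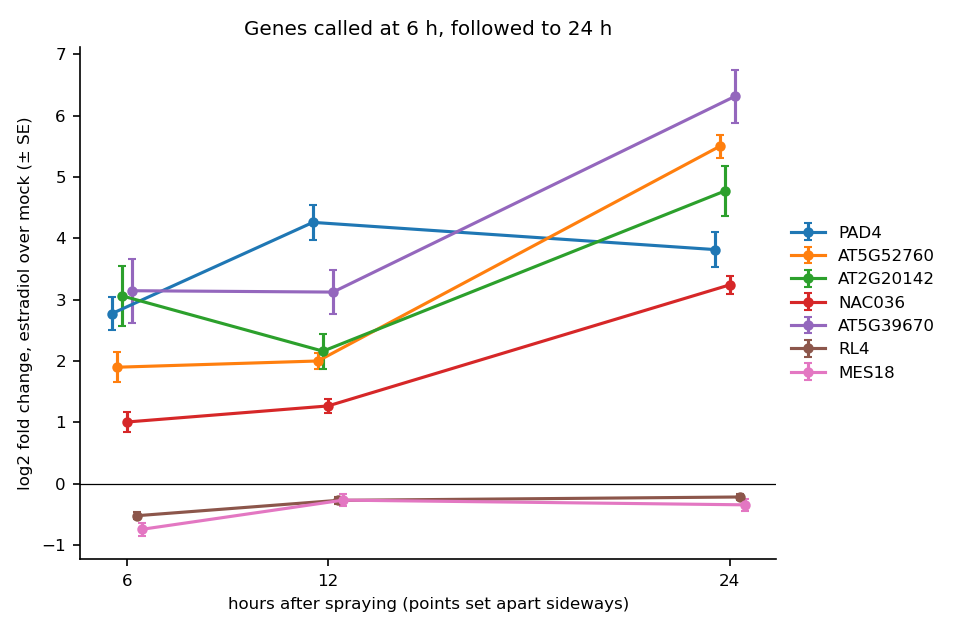
Log2 fold change, estradiol over mock (vertical axis, ± SE from the fit to all libraries), at 6, 12 and 24 h after spraying (horizontal axis) for the 7 genes called at 6 h. The 5 risers stay above 0 at each time, and RL4 and MES18 lie nearest to 0 at the later times.

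Genes called at 12 h were shifted slightly the same way at 6 h, unevenly between libraries. At 12 h 892 genes were called higher (4.64%) and 975 lower (5.07%), and at 24 h 1620 higher (8.43%) and 1257 lower (6.54%). The genes higher at 12 h had a median log2 fold change of 0.08 at 6 h, with 69.28% of them positive, and those lower at 12 h a median of -0.04, with 31.28% positive, beside 0.01 and 52.56% for all genes tested. For the 222 genes higher by at least 2-fold at 12 h, the median at 6 h was 0.48, and 83.33% were positive. Of these 222, 43 (19.37%) had estradiol libraries that all exceeded the mock libraries at 6 h, beside 6.88% of all genes, and 5 were called. The values of the 222 dropped without estradiol replicate 3, to a median of 0.27 with 70.72% positive (all genes 50.70%), and grew without estradiol replicate 1, to 0.63 with 86.94% positive. Those of all 892 dropped without estradiol replicate 3 to 0.03 with 58.86% positive, and the 975 lower ones had -0.04 with 34.15% positive.

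The 1620 genes higher at 24 h had a median of 0.03 at 6 h with 59.20% positive, and 0.00 with 49.75% positive without estradiol replicate 3. For the 518 of them higher by at least 2-fold the median was 0.18 with 69.11% positive, and 0.07 with 56.18% positive without replicate 3. The 1257 genes lower at 24 h had -0.01 with 47.41% positive, and the 26 lower by at least 2-fold lay on the other side, at 0.15 with 61.54% positive.

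Library by library, the same 222 genes lay at a median of -0.04, 0.21 and 0.34 in estradiol replicates 1, 2 and 3, against -0.02, -0.04 and 0.02 in the mock libraries, as log2(CPM + 0.5) over the mock mean. Adding 0.5 CPM shrinks the differences of scarce genes, so these medians and the log2 fold changes given before are different measures. Estradiol replicate 1, with the least PAD4, was close to the mock libraries, and replicates 2 and 3 lay above it. It was the lowest estradiol library for 66.22% of these genes, beside 32.51% of all genes tested. The genes lower at 12 h were highest in replicate 1 for 45.13%, beside 30.13% of all genes. The cause of the difference between libraries was not tested, and replicate 3 also had raised JA genes.

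**Figure D4:**
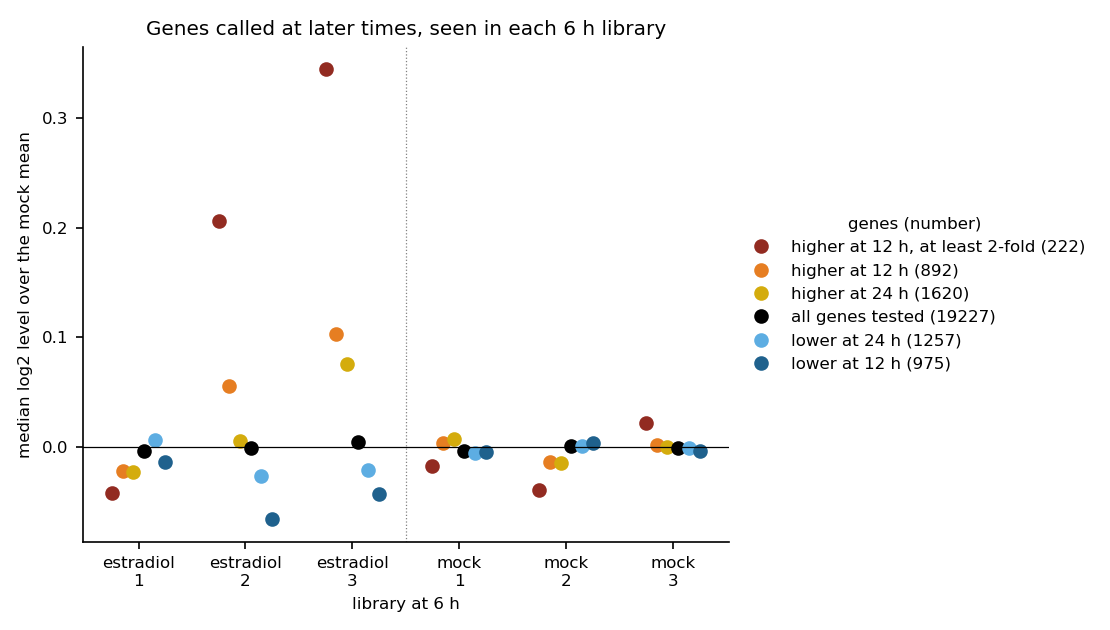
Median level over the mock mean, as a log2 difference (vertical axis), in each 6 h library (horizontal axis, estradiol left of mock) for genes called higher or lower at 12 or 24 h and for all genes tested. The genes higher by at least 2-fold at 12 h stand at 0.21 and 0.34 in estradiol replicates 2 and 3 and at -0.04 in replicate 1.

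Among genes called higher at 12 h, those with the highest change at 6 h and groups that did not overlap were, beside PAD4, AT5G39670, AT2G20142, AT5G52760, AT5G24200 and AT1G43910, the genes AIG1 and AT3G28580. AIG1, named for its induction by the effector avrRpt2, had 15, 18 and 20 reads in the estradiol libraries, against 1, 3 and 8 in the mock libraries. The groups were separate by that choice of genes. The log2 fold change of 2.35 ± 0.73 did not pass the test (adjusted p 0.524). It was 4.66 at 12 h and 7.68 at 24 h. AT3G28580, annotated as a nucleoside triphosphate hydrolase, had 0.664, 1.040 and 1.394 CPM under estradiol and 0.299, 0.126 and 0.485 CPM under mock (log2 1.69 ± 0.50, adjusted p 0.503).

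Genes of SA synthesis gave no call at 6 h. Of 10 members tested, 0 were called, and 3 had groups that did not overlap, all in the higher direction: ICS2, EDS5 and PBS3. Over all genes tested, 0.0364% were called and 6.88% did not overlap in that direction. ICS1, the main isochorismate synthase, had 16.41, 15.85 and 18.35 CPM under estradiol, against 15.36, 17.60 and 15.91 CPM under mock. The groups overlapped (log2 0.05 ± 0.14, adjusted p 0.963). The effect on ICS1 was larger by 1.18 at 12 h (adjusted p 0.0197) and by 1.71 at 24 h (adjusted p 2.89e-05). ICS2, its minor paralog, had 16.79, 15.09 and 13.79 CPM under estradiol, against 11.81, 12.07 and 11.81 CPM under mock (log2 0.35 ± 0.097, adjusted p 0.392).

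PBS3, which joins glutamate to isochorismate, had 4.934, 4.732 and 4.936 CPM under estradiol and 3.815, 4.399 and 3.736 CPM under mock (log2 0.30 ± 0.17, adjusted p 0.715). EDS5, the exporter of the precursor from the chloroplast, had 4.696, 4.625 and 11.04 CPM under estradiol, against 4.313, 3.771 and 4.050 CPM under mock. Only replicate 3 was far above mock, and the log2 fold change of 0.75 ± 0.28 was 0.20 without it. SARD1 and CBP60G, the calmodulin-binding-type factors that switch on ICS1, had log2 differences of 0.33 ± 0.26 and 0.40 ± 0.22, and -0.06 and 0.11 without replicate 3. WRKY28, a factor that binds the ICS1 promoter, was the lowest of the list at -0.16 ± 0.27. The median over the list was 0.17, and 0.09 without replicate 3.

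Among 21 tested genes of SA perception and response, 0 were called, 3 had p below 0.05 in the higher direction, beside 4.75% of all genes, and the median was 0.00, or -0.12 without replicate 3. WRKY70 and WRKY54, SA-responsive factors, lay on the low side in 2 of the 3 estradiol libraries. WRKY70 had 21.82, 20.04 and 35.38 CPM under estradiol, against 39.51, 28.16 and 34.11 CPM under mock (log2 -0.40 ± 0.26, adjusted p 0.76). WRKY54 had 8.397, 8.891 and 16.01 CPM under estradiol, against 17.95, 13.07 and 14.26 CPM under mock (log2 -0.44 ± 0.29, adjusted p 0.763). Estradiol replicates 1 and 2 of both genes were below every mock library and replicate 3 was not. Without replicate 3 the differences were -0.70 and -0.80.

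WRKY46 differed the other way, with 3.510, 3.513 and 4.786 CPM under estradiol and 1.991, 2.388 and 2.310 CPM under mock (log2 0.83 ± 0.25, adjusted p 0.514). Its groups were separate. PR2, a beta-1,3-glucanase, had 7.448, 5.378 and 15.07 CPM under estradiol, against 4.346, 3.645 and 7.187 CPM under mock (log2 0.85 ± 0.33, and 0.29 without replicate 3). PR1, the standard SA marker, had 0 reads in all 6 libraries, which allows up to 0.142 CPM in the shallowest one. PNP-A, a natriuretic peptide, had the highest estimate of the list, 0.98 ± 0.56, and WRKY38 the lowest, -1.12 ± 1.72, from 1 read in the estradiol libraries and 3 in the mock libraries.

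The pipecolic acid branch, which makes the mobile signal of systemic resistance, was at the edge of detection. ALD1, its first enzyme, had 1, 2 and 20 reads in estradiol libraries and 5, 9 and 14 in mock libraries, and FMO1, its last, had 0, 2 and 3 reads under estradiol, against 1, 0 and 0 under mock. For both genes the groups overlapped, and 20 of the 23 ALD1 reads under estradiol came from replicate 3. NIMIN1, which binds the SA receptor NPR1, had 2, 6 and 11 reads under estradiol, against 7, 4 and 8 under mock. UGT76B1, a glucosyltransferase of this branch, had 1, 0 and 4 reads under estradiol, against 3, 2 and 2 under mock, and LHT1, an amino acid transporter, had 12.98 to 15.75 CPM under estradiol and 13.07 to 15.46 CPM under mock (log2 -0.01 ± 0.11). The median over the 4 genes of this branch was -0.03, and -0.92 without replicate 3.

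The partners of PAD4 gave no call. SAG101, the other EDS1 partner, had 10.06, 10.36 and 11.04 CPM under estradiol, against 10.45, 10.27 and 10.72 CPM under mock (log2 0.00 ± 0.09). The helper receptors ADR1, ADR1-L1 and ADR1-L2 had log2 differences of -0.07 ± 0.10, 0.01 ± 0.099 and 0.25 ± 0.13, with groups that overlapped. Of 5 genes in this list 0 were called, at a median of 0.00, or -0.04 without replicate 3. Among 10 tested partners or suppressors of this pathway, 0 were called and the median was -0.02, or -0.04 without replicate 3. NUDT6, a close relative of NUDT7, had 0.901, 1.828 and 2.110 CPM under estradiol, against 0.896, 0.461 and 1.312 CPM under mock (log2 0.82 ± 0.27, adjusted p 0.56), and ACD6, a membrane protein with ankyrin repeats that promotes SA signalling, had 211.1, 173.0 and 242.1 CPM under estradiol, against 312.4, 230.7 and 277.7 CPM under mock (log2 -0.39 ± 0.17, adjusted p 0.613).

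Of the 16 intracellular immune receptors tested, 13 had a negative change, beside 52.56% of all genes tested with a positive one, and none was called. Their median was -0.07, or -0.09 without replicate 3, with a range of -0.43 (RPS2) to 0.04 (VICTR). The cysteine-rich and wall-associated receptor kinases had a median of 0.48 over 23 genes and of 0.33 without replicate 3. As log2(CPM + 0.5) over the mock mean, their median was only 0.04, 0.05 and 0.24 in estradiol replicates 1, 2 and 3. In the mock libraries it was -0.02, -0.01 and -0.01. Of the 23, 15 were positive, beside 52.56% of all genes tested, and 0 were called by edgeR. In this list 5 genes had p below 0.05 in the higher direction, beside 4.75% of all genes, and 1 in the lower direction, CRK18 (log2 -0.31 ± 0.14, adjusted p 0.633). CRK39 had the highest estimate, 1.65 ± 1.27, from levels of at most 0.113 CPM, and CRK8 the lowest, -0.39 ± 0.55. At 12 h 17 of the 23 were called higher, beside 4.64% of all genes tested. Surface receptors and early signalling genes had a median of 0.09 over 26 genes, which turned to -0.01 without replicate 3, with RLP23, a receptor of the NLP peptide, at 0.67 ± 0.27 and FLS2, the flagellin receptor, at -0.16 ± 0.11.

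Genes that respond early to touch, wounding or cold were mostly on the high side. Of 22 tested, 19 had a positive change, beside 52.56% of all genes tested, and so did 11 of the 13 reference genes. The median of the 22 was 0.22, and 0.18 without replicate 3. None was called, 6 had p below 0.05 in the higher direction and 0 in the lower, beside 4.75% and 2.82% of all genes. TCH3, a calmodulin-like touch gene, had 14.90, 19.18 and 32.33 CPM under estradiol, against 11.15, 9.721 and 12.75 CPM under mock. All estradiol libraries exceeded all mock libraries (log2 0.98 ± 0.26, adjusted p 0.37, and 0.60 without replicate 3). ERF105, an ethylene-response factor, had the highest estimate of the list at 1.48 ± 0.46 and CML37, a calmodulin-like protein, the lowest at -0.22 ± 0.68. Genes of abscisic acid and water deficit were positive in 19 of 20, beside 52.56% of all genes tested. Their median was 0.25, or 0.22 without replicate 3, and 0 were called. KIN1, a cold- and drought-induced protein, was the highest at 0.58 ± 0.29 and NCED3, an enzyme of abscisic acid synthesis, the lowest at -0.06 ± 0.17. COR15A, a cold-regulated chloroplast protein, had 963.6, 735.8 and 938.7 CPM under estradiol, against 621.4, 669.5 and 642.1 CPM under mock (log2 0.45 ± 0.19, adjusted p 0.61).

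Endoplasmic reticulum folding genes had a positive change in 20 of 22, beside 52.56% of all genes tested. Their median of 0.16 was 0.07 without replicate 3, and 0 were called. BIP3, an inducible chaperone, had the highest estimate, 0.88 ± 0.70, and NAC103 the lowest, -0.28 ± 0.60. At 12 h 13 of the 22 were called higher, beside 4.64% of all genes tested. Photosynthesis genes had a median of -0.05 over 22, cell division genes 0.14 over 14, clock genes -0.05 over 16 and reference genes 0.06 over 13, with 0 called in each. Without replicate 3 these medians were -0.04, 0.14, -0.07 and 0.08 in the same order. The highest and lowest estimates were 0.08 ± 0.21 (LHCB1.1) and -0.11 ± 0.085 (RBCS3B) in photosynthesis, 0.40 ± 0.23 (CYCA3;1) and -0.41 ± 0.27 (CYCA1;1) in cell division, and 0.23 ± 0.11 (TUA2) and -0.09 ± 0.049 (UBC9) among reference genes. ELF4 was the highest clock gene at 0.04 ± 0.091, and RVE2, a MYB-type relative of the clock proteins, was the lowest, with 0.285, 0.394 and 0.339 CPM under estradiol and 0.597, 0.880 and 0.599 CPM under mock (log2 -0.96 ± 0.38, adjusted p 0.587).

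The families of the 2 falling genes gave no further call by edgeR. Of 16 methylesterase genes tested, only MES18 was called, and the median was -0.02, or -0.07 without replicate 3. MES2, MES8, MES10 and MES16 had estradiol libraries all below mock libraries without passing the test (log2 -0.14, -0.45, -0.10 and -0.27), beside 7.00% of all genes with groups separate in that direction. MES9 had the highest estimate at 0.75 ± 0.31, of which 0.04 was left without replicate 3. Among the 4 RADIALIS-like genes tested, at a median of -0.31, or -0.35 without replicate 3, RL3 was lower beside RL4 without passing edgeR's test, while RL5 and RL6 had -0.10 ± 0.21 and 0.10 ± 0.20.

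Most JA genes stood highest in a single estradiol library. Over 45 tested genes of JA synthesis, of the JAZ repressors and MYC factors, and of JA output and breakdown, 0 were called. Their median was 0.02, -0.18 and 0.78 in estradiol replicates 1, 2 and 3, against 0.00, -0.07 and 0.03 in the mock libraries, as log2(CPM + 0.5) over the mock mean. Of the 45, 40 (88.89%) were highest in estradiol replicate 3, beside 22.07% of all genes tested. By these medians, 1 estradiol library of 3 had raised JA transcripts and replicates 1 and 2 did not.

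Along the pathway, AOS, the allene oxide synthase that starts the JA branch, had 1295.1, 988.4 and 2417.9 CPM under estradiol, against 1176.5, 1112.3 and 1162.6 CPM under mock. AOC1, the next enzyme, had 168.3, 113.9 and 594.4 CPM under estradiol, against 171.2, 160.0 and 180.9 CPM under mock, and OPR3, the reductase in the peroxisome, 101.8, 88.44 and 295.8 CPM under estradiol, against 95.98, 103.4 and 99.07 CPM under mock. Replicate 3 was above all other libraries in each, and replicates 1 and 2 were far nearer to the mock range. Their log2 differences of 0.45 ± 0.24, 0.78 ± 0.45 and 0.71 ± 0.31 were -0.01, -0.28 and -0.07 without replicate 3. LOX2, the chloroplast lipoxygenase, had 6127.9, 3958.2 and 10471.1 CPM under estradiol and 5292.8, 4619.6 and 4946.9 CPM under mock (log2 0.47 ± 0.30, and 0.03 without it).

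ACX5, an acyl-CoA oxidase, was the lowest of the JA synthesis list at -0.09 ± 0.073. The medians of the 3 lists were 0.37 for synthesis, 0.12 for repressors and MYC factors and 0.38 for outputs and breakdown, and -0.07, -0.07 and -0.38 without replicate 3.

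Most regulators and outputs had the same shape. MYC2, the main JA transcription factor, had 134.9, 117.1 and 318.5 CPM under estradiol and 134.2, 132.1 and 132.9 CPM under mock, and JAZ10, a repressor that JA itself induces, had 1.898, 1.111 and 3.806 CPM under estradiol, against 1.161, 1.466 and 1.740 CPM under mock. VSP2, a vegetative storage protein and JA marker, had 656.5, 161.0 and 1478.9 CPM under estradiol, against 526.9, 503.1 and 565.4 CPM under mock. It was high in replicate 3 and low in replicate 2, with replicate 1 near mock. TAT3, a tyrosine aminotransferase induced by wounding, had 2.040, 1.398 and 29.84 CPM under estradiol, against 4.246, 1.802 and 2.595 CPM under mock. Replicate 3 alone stood out there, and the log2 difference of 1.95 ± 0.77 was -0.79 without it. JAZ1 and JAZ4 bounded their list at 0.69 ± 0.34 and -0.23 ± 0.36. JAZ1 had 38.05, 35.28 and 81.69 CPM under estradiol, against 28.37, 32.93 and 35.13 CPM under mock. It was the 1 gene of 16 tested in its list whose groups were separate in the higher direction, beside 6.88% of all genes. ORA59, a factor joining JA and ethylene signals, was the lowest of the outputs at -0.72 ± 0.46.

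The 88 genes that set replicate 3 apart held 13 of the 45 JA genes, and 68 were in none of the gene lists. Outside the lists were NATA1, an acetyltransferase that makes acetylornithine, at 52.33, 12.69 and 130.7 CPM under estradiol and 33.01, 23.17 and 42.09 CPM under mock, and ARGAH2, an arginase, at 1013.3, 569.3 and 2534.4 CPM under estradiol, against 913.4, 924.6 and 886.0 CPM under mock. Both also had their lowest value in replicate 2. JMT, the enzyme that methylates JA, also in none of them, had 9.820, 9.178 and 24.42 CPM under estradiol, against 10.18, 9.930 and 9.867 CPM under mock. Camalexin and indole glucosinolate genes shared the pattern: 16 of 18 tested were highest in replicate 3, beside 22.07% of all genes tested. Their median was 0.22, and 0.00 without replicate 3. PAD3, the last enzyme of camalexin synthesis, had 1.660, 2.474 and 12.10 CPM under estradiol, against 1.891, 1.634 and 4.877 CPM under mock (log2 0.92, and -0.48 without replicate 3). The list ran between -0.08 ± 0.085 (PEN2) and 1.78 ± 0.75 (CYP71A12), the second of which was 0.39 without replicate 3. No gene of these JA and camalexin lists was called at 6 h, with or without replicate 3. Other lists also often had their highest value in replicate 3. This held for 18 of 22 genes of endoplasmic reticulum folding and 15 of 26 surface receptor and early signalling genes. It also held for 4 of 4 genes of the pipecolic acid branch and 4 of 5 of the EDS1 and helper receptor list. Photosynthesis genes, at 3 of 22, and vascular markers, at 0 of 7, did not show this.

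Replicate 2 had its own marks. The 14 auxin-related genes tested had a median of 0.53 in it, beside 0.03 and -0.02 in estradiol replicates 1 and 3, against -0.09 to 0.12 in mock libraries. Their median log2 fold change was 0.19, and 0.25 without replicate 3. IAA19, an auxin-induced repressor, had 1.755, 5.127 and 1.658 CPM under estradiol and 1.493, 1.383 and 1.740 CPM under mock. IAA29 had 3.131, 7.851 and 2.261 CPM under estradiol, against 2.156, 2.430 and 4.050 CPM under mock. Replicate 2 was the highest of all 6 for both, and neither gene was called (adjusted p 0.57 and 0.723). SAUR10, a small auxin-up RNA, had 0.237, 1.147 and 0.415 CPM under estradiol, against 0.0664, 0.126 and 0.171 CPM under mock (log2 2.30 ± 0.61, adjusted p 0.37), and YUC8, an enzyme of auxin synthesis, was the lowest of the list at -0.04 ± 0.72.

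**Figure D5:**
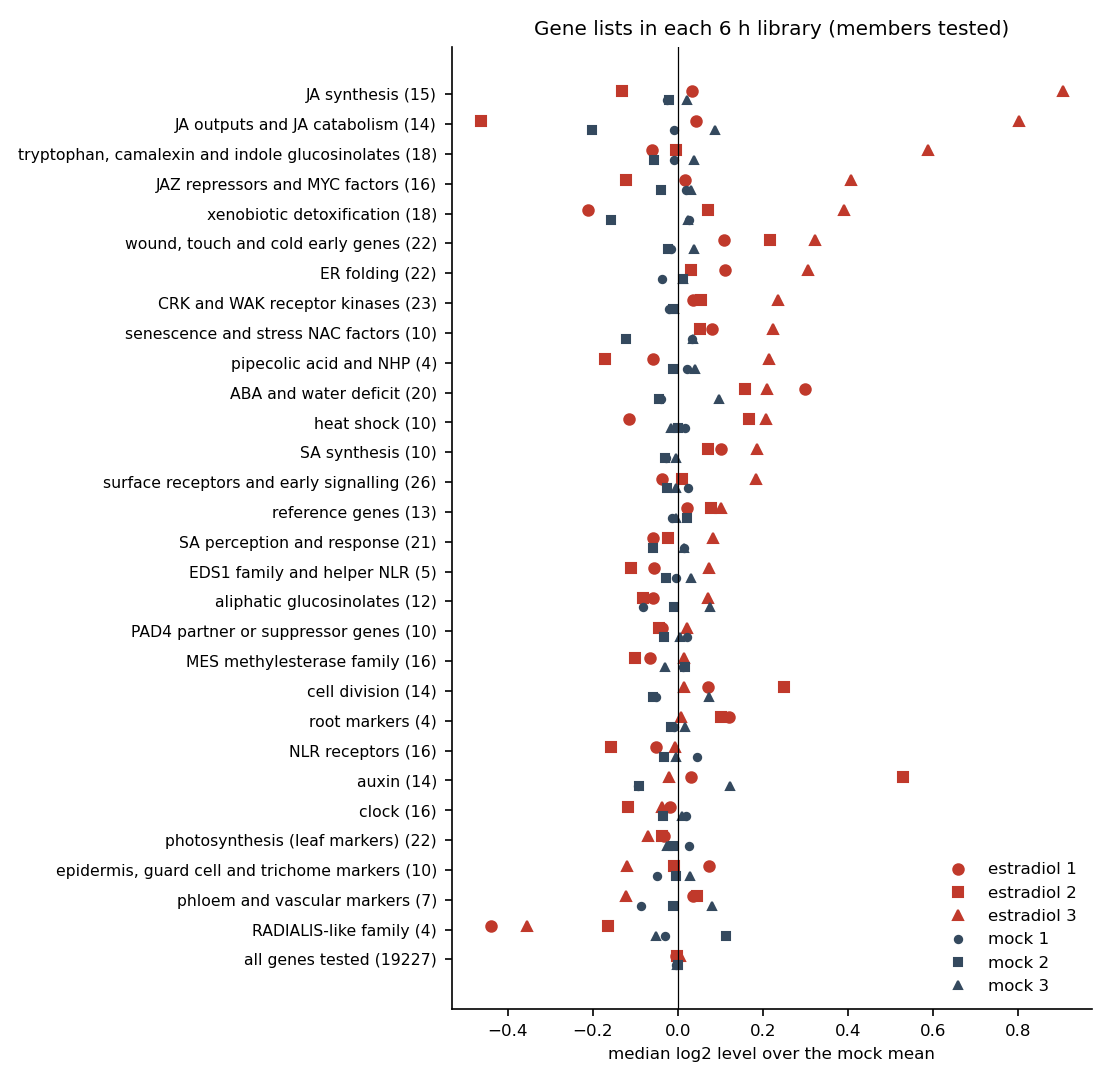
Median level of each gene list over the mock mean, as a log2 difference (horizontal axis), in each 6 h library, for lists with at least 4 genes tested (number in brackets). Red symbols are estradiol libraries, set above the dark mock symbols of the same list, and lists are ordered by estradiol replicate 3. The JA lists lie at 0.41 to 0.91 in replicate 3 and near or below 0 in replicates 1 and 2.

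The remaining lists held 1 call, NAC036 among 10 stress NAC factors, whose median was 0.18, or 0.03 without replicate 3, and whose lowest member was JUB1 at -0.20 ± 0.76. Aliphatic glucosinolate genes had a median of -0.03 over 12, or -0.07 without replicate 3, between MAM3 at -0.36 ± 0.54 and MYB29 at 0.13 ± 0.082. Xenobiotic detoxification genes had 0.22 over 18, of which 0.03 was left without replicate 3, between CYP81D11 at -0.68 ± 0.58 and GSTU25 at 1.45 ± 0.90, and 13 of the 18 were called higher at 12 h, beside 4.64% of all genes tested. Heat shock genes had 0.21 over 10, or 0.12 without replicate 3, between HSP101 at -0.09 ± 0.15 and HSP17.6II at 1.59 ± 1.05. Markers of vascular tissue had a median of -0.01 over 7, or 0.05 without replicate 3, between APL at -0.11 ± 0.07 and XCP2 at 0.14 ± 0.18, and those of epidermis, guard cells and trichomes had 0.02 over 10, or 0.05 without replicate 3, between KAT1 at -0.23 ± 0.089 and GL3 at 0.80 ± 0.55. Of 10 root markers 4 were tested, between NRT1.1 at -0.13 ± 0.09 and WOX5 at 0.36 ± 0.58, and of 9 flower and pollen markers only AG, at -0.32 ± 0.20. Of the 2 RPW8 homologs tested, HR4 had 11.72, 18.14 and 22.99 CPM under estradiol, against 12.84, 9.344 and 12.92 CPM under mock (log2 0.59 ± 0.23, adjusted p 0.57), and HR3 -0.09 ± 0.25.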

How the data were processed

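Leaf polyA RNA libraries (TruSeq v2, per the labels' protocols) were read as one table of raw counts per gene, as deposited by the authors. FastQC 0.11.2, TopHat2 2.0.10, HTSeq and the build TAIR10 are named in the submitters' processing notes; how reads were assigned (annotation release, strand, overlaps) is not stated there. The 5 classes of reads given to no gene, 5.76 to 6.35% of reads, were dropped. The 6 libraries held 22590027 to 37547100 gene reads, and limits from 3 reads cover counting error only.

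The counts of all 18 libraries were fitted with edgeR 4.0.16 (R 4.3.3): TMM scaling, filterByExpr (minimum count 10, total 15), 1 coefficient for each of 6 groups, the quasi-likelihood test, and Benjamini-Hochberg adjustment over 19227 genes. Adjusted p-values in the text are from this fit unless another tool is named, SE are those of the log2 fold change, and genes were called at an adjusted p below 0.05. CPM use the TMM library sizes. The script was tested on simulated counts. Alternatives were other scalings (RLE, upper quartile), no filter, a filter of 1 CPM in 3 libraries, DESeq2 1.42.0, limma-voom 3.58.1, a fit to the 6 h libraries alone, a replicate block, leaving out each library, a threshold of 0.01 and a minimum change of 2-fold.

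Gene names and windows came from RefSeq TAIR10.1, and 453 of 479 entries of 31 gene lists were matched. The upstream window of NAC036 is not reported here. The members and lists were chosen with earlier results of these data known. Genes were named by rule, starting with the called genes. Next came the 10 higher and 10 lower uncalled genes with separate groups and the smallest p (mean log2 CPM of at least 1). Then came all 33 genes called by DESeq2 alone, where the plan had named only the 6 largest rises and the 6 largest falls. The extremes of each list and 18 defence hormone genes followed. The last were the 8 largest 6 h changes among genes higher at 12 h, also with separate groups and that mean level. Others named in the text, such as NUDT6, WRKY46, WRKY54, ICS2, AOC1, OPR3, TCH3, COR15A, NATA1, ARGAH2, JMT, IAA19 and IAA29, were chosen after their values were seen. Figures and tables used Python 3.11.15 and pandas 2.3.3.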

Additional observations from a re-analysis of the deposited data

Results flagged for a closer look

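For 12 named genes the estradiol effect at a later time differed from that at 6 h by the test of the difference itself (edgeR's quasi-likelihood test, Benjamini-Hochberg adjusted over all genes). Differences are on the log2 scale, later effect minus 6 h effect, and each time has its own libraries. Among the genes called at 6 h, the effect at 24 h was higher by 3.60 for AT5G52760 (adjusted p 6.33e-06), 2.24 for NAC036 (5.36e-06) and 3.17 for AT5G39670 (0.0457), and for RL4, which fell at each time, the difference was 0.30 (0.0223). In SA synthesis, ICS1 differed by 1.18 at 12 h (0.0197) and 1.71 at 24 h (2.89e-05), PBS3 by 1.74 (0.0105) and 1.33 (0.00121), and the regulators SARD1 and CBP60G by 2.76 (4.94e-05) and 2.26 (0.000124) at 24 h. Among SA response genes, WRKY70 differed by 1.64 at 12 h (0.0452) and 3.03 at 24 h (3.77e-05), PR2 by 3.32 at 24 h (0.000206) and NIMIN1 by 7.18 at 24 h (0.000141). ALD1, of the pipecolic acid branch, differed by 6.86 at 24 h (0.0138). ALD1 and NIMIN1 rested on 23 and 19 reads in the 3 estradiol libraries of 6 h.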

How the results depend on the processing

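The number of genes higher at 6 h was 5, and 24 with DESeq2, 8 with the replicate number as a block, 1 by limma-voom, 1 in a fit to the 6 h libraries alone, 2 at an adjusted p below 0.01, and 2 to 4 when 1 library was left out. The number lower was 2, and 16 with DESeq2, 1 with the replicate block, 0 with a 2-fold minimum and 1 to 5 when 1 library was left out. With the replicate block, RGP1 (adjusted p 0.00931), RD28 (0.0227), AT1G43910 (0.0417) and XBAT34 (0.0476) were also called higher, and NAC036 and MES18 missed the test (0.06 each). Without estradiol replicate 2, EXPA8, GASA6 and RL3 were also called lower, and without estradiol replicate 3, AT4G25940 and DIN10. PAD4 and EDS1 kept their direction and their side of the threshold under every alternative run. Without estradiol replicate 3 the log2 fold change reversed to -0.012 for ICS1, -0.061 for SARD1, -0.38 for NIMIN1, -0.011 for AOS, -0.08 for MYC2, -0.38 for VSP2 and -0.79 for TAT3. The highest values with another library left out were 0.11, 0.50, 0.55, 0.68, 0.76, 1.00 and 2.48 for these genes in the same order. ALD1, at -2.28 without estradiol replicate 3, reversed to 0.37 without estradiol replicate 1, 0.44 without estradiol replicate 2, 0.062 without mock replicate 2 and 0.20 without mock replicate 3. None of these 8 genes passed the test in the main analysis. The cause of these changes was not tested. Deviations from the group means correlated at -0.015, 0.084 and 0.050 for same-numbered libraries, and at -0.104 to 0.058 for differently numbered ones. With so few libraries these values do not settle whether the replicate numbers paired them. Scarce transcripts were measured less precisely: the median SE was 0.368 for genes with a mean log2 CPM below 1, against 0.0865 for the rest. The whole 95% interval lay within 2-fold of no change for 44.3% of these scarcer genes. How much of this is due to depth was not tested.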
